A study of Rattus norvegicus with 24 samples.

Results

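The junction and caveolae genes of the blood-retinal barrier were followed in rat retina 1 and 3 months after the induction of diabetes. The set held 9 genes, and its members were all array probes whose RefSeq accession maps to one of them. Probes were matched for 6 of the 9 genes, 8 probes among 33911 on the array: occludin (Ocln, 1 probe), claudin-3 (Cldn3, 1), claudin-11 (Cldn11, 1), connexin43 (Gja1, 3), caveolin-1 (Cav1, 1) and caveolin-2 (Cav2, 1). Cldn1, Cldn5 and Tjp1 were not analysed here. Whole retinas of male Sprague Dawley rats were used. STZ rats had received streptozotocin, which kills pancreatic beta cells, and Control rats the citrate vehicle alone. STZ rats were selected for high blood glucose and were given no insulin. Each of the 4 groups (1M Control, 1M STZ, 3M Control and 3M STZ, named for the 1 or 3 months since the injection) had 6 arrays. The sets of the 2 time points were produced and killed separately, so age, duration and batch cannot be told apart between them.

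The inner blood-retinal barrier is made by the endothelial cells of the retinal capillaries, and the outer barrier by the retinal pigment epithelium. Tight junctions close the gap between neighbouring cells: occludin and the claudins are their membrane proteins, and zonula occludens-1, the product of Tjp1, ties them to actin. Gap junctions are channels of connexins that join the cytoplasm of neighbouring cells, and connexin43 forms them in retinal astrocytes, Müller glia, pericytes and endothelium. Caveolae are flask-shaped pits of the plasma membrane, abundant in endothelium, that are built on caveolin-1 with caveolin-2 as its partner. Claudin-11 is best known from the tight junctions of myelin.

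At 3 months, 2 of the 3 tested genes were called higher in STZ than in Control retina, as were 50.5% of all tested probes, and no tight junction member of the set was bright enough to be tested. Gja1 was 1.89-fold higher by its brightest probe and Cav1 1.41-fold higher, while Cav2 did not pass the test. Both calls were lost without the array 3M Control 2, and that of Gja1 with quantile normalization, where its difference was 0.24 on the log2 scale. The Cav1 probe was at or under the 95th percentile of the array's 62 probes for bacterial genes on all 12 arrays at 3 months. A dim probe of Gja1 was lower in STZ. At 1 month none of the members passed. The probes of Ocln, Cldn3 and Cldn11 lay under the detection limit on most or all arrays. A probe was tested when its median intensity over the 24 arrays, scaled to the median probe of each array, was above 0.554, which is -0.85 on the log2 scale used below. By this rule 4 of the 8 probes, from 3 genes, were tested: Gja1 GE15258 and GE1202712, Cav1 GE1212225 and Cav2 GE1156181.

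The promoters of the 3 tested genes are shown because these are the members whose signal could be compared between groups. The windows run from 250 bases before to 50 bases after the RefSeq start of the gene in the GRCr8 build, each on the plus strand, 5′ to 3′. They are chr20:36302314-36302613 for Gja1, chr4:46606288-46606587 for Cav1 and chr4:46582431-46582730 for Cav2. Capitals mark matches, on either strand, to the AP-1 motif TGANTCA, the GC box GGGCGG and the TATA box TATAAA.
Gja1: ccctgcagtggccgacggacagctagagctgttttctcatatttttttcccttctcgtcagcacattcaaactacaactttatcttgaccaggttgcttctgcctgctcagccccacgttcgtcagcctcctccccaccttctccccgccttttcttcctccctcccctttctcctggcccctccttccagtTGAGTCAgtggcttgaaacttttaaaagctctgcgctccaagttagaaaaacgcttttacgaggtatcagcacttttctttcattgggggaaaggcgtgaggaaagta
Cav1: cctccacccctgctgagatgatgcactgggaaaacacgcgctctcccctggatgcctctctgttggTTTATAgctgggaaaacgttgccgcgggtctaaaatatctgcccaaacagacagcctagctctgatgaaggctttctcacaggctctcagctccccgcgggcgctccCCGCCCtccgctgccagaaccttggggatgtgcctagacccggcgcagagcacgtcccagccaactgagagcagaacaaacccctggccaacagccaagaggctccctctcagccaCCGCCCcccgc
Cav2: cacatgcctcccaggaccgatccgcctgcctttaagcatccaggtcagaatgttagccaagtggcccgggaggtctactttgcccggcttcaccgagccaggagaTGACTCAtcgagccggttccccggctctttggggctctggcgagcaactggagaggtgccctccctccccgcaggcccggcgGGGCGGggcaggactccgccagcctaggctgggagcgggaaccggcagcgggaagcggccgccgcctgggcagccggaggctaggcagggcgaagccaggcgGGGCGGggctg
The AP-1 letters occurred once in the Gja1 window, 58 bases before the start, and once in the Cav2 window, 145 bases before it. They were found in 7.3% of all 33469 promoter windows of the same length. GC boxes occurred 2 times each in the Cav1 and Cav2 windows and 0 times in the Gja1 window, against at least 1 in 33.1% of all windows. A TATA box, held by 14.2% of all windows, was found 184 bases before the start in Cav1. In the second RefSeq window of Cav1, which is not shown, none of the 3 motifs was found. Cav2 and Cav1 are neighbours on chromosome 4, with 0 annotated genes between them. These matches are letters in a window, and binding was not measured.

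**Figure D1:**
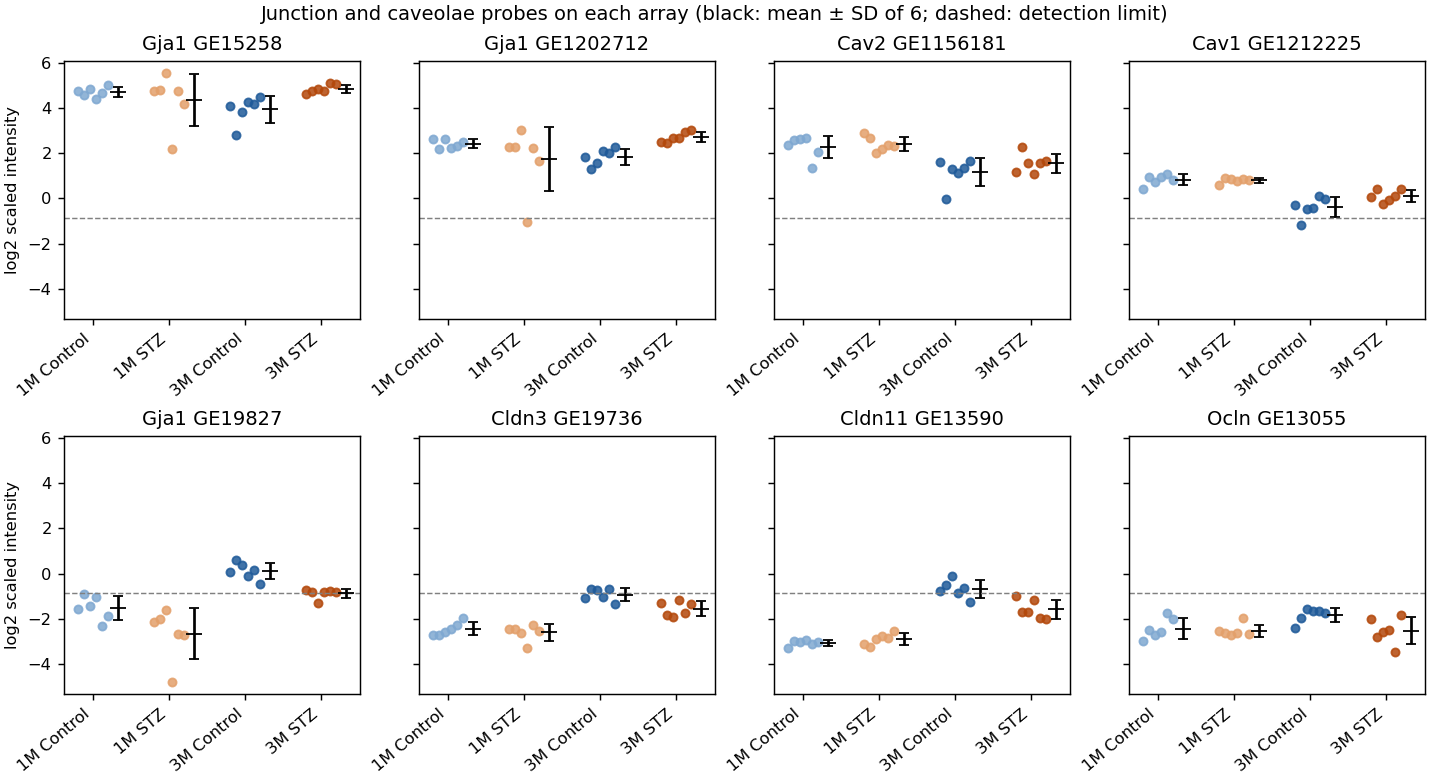
Log2 scaled intensity (y axis) of the 8 probes in the 4 groups (x axis); each point is 1 array, the black bar is the mean ± SD of 6 arrays and the dashed line is the detection limit of -0.85. On the upper 4 probes 3M Control lies below 1M Control, both Gja1 probes there have all 6 3M STZ arrays above the 3M Control arrays, and the lower 4 probes lie near or under the limit.

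Gja1 was measured by 3 probes that carry the same RefSeq accession. On GE15258 the log2 level was between 4.41 and 5.03 (median 4.72) in 1M Control and between 2.17 and 5.56 (median 4.74) in 1M STZ. In 3M Control it was between 2.81 and 4.47 (median 4.13), and in 3M STZ between 4.63 and 5.09 (median 4.80). All 6 STZ arrays at 3 months were above every Control array, as was the case for 9.49% of all tested probes. At 1 month the groups overlapped.

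The 3 month difference of GE15258 was 0.92 ± 0.34 on the log2 scale (SE, n = 6 per group, 95% interval 0.22 to 1.61), with a limma adjusted p of 0.0265. It was called, which took 1.2-fold or more and an adjusted p below 0.05. Of all 22025 tested probes 54.1% were called at 3 months, 50.5% higher and 3.55% lower, and the 2 calls among the 4 tested member probes stand against that share. The median difference over all tested probes was 0.44. Without 3M Control 2, the lowest 3 month array for this probe, the difference was 0.69 and the adjusted p 0.0978.

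The second Gja1 probe, GE1202712, moved like the first. It ranged from 2.19 to 2.65 (median 2.42) in 1M Control, from -1.02 to 3.05 (median 2.27) in 1M STZ, from 1.30 to 2.28 (median 1.92) in 3M Control and from 2.47 to 3.01 (median 2.67) in 3M STZ. Again all 6 STZ arrays at 3 months were above every Control array. Its difference of 0.86 ± 0.38 (SE, 95% interval 0.08 to 1.64) missed the threshold in the shared model (limma adjusted p = 0.0575). It passed when 1M STZ 4 was left out, with the same difference and an adjusted p of 0.00117.

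The third Gja1 probe, GE19827, went the other way. It was under the limit on all 12 arrays at 1 month. At 3 months it was above the limit on 6 of 6 Control arrays, from -0.44 to 0.61 (median 0.11), and on 5 of 6 STZ arrays, from -1.29 to -0.74 (median -0.80). All 6 STZ arrays were below every Control array, as they were for 9.03% of the probes at or under the limit. Fitted with all 33849 rat probes and no filter, the 3 month difference was -0.98 ± 0.35 (SE, limma adjusted p = 0.0265). In that fit 46.3% of all probes were called, and 34.6% of the probes at or under the limit were called lower. The intensity of GE19827 was also low beside the bacterial probes on the same arrays: it exceeded their 95th percentile on 1 of 24 arrays, against 24 for GE15258 and 23 for GE1202712. With quantile normalization its difference was -1.42. At 3 months the 2 bright probes were thus higher and the dim one lower in STZ. With a signal above the bacterial 95th percentile on 1 of 24 arrays, the dim probe cannot decide the direction for Gja1.

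At 1 month the Gja1 differences were -0.35 ± 0.34 for GE15258 (SE, 95% interval -1.05 to 0.35) and -0.68 ± 0.38 for GE1202712 (-1.46 to 0.10), both with a limma adjusted p of 0.9999. Of all tested probes 0.00908% were called, 2 probes, with 927 at an unadjusted p under 0.05. These values rested on the array 1M STZ 4. On it GE15258 was at 2.17, against 4.18 to 5.56 on the other 5 STZ arrays, and GE1202712 was at -1.02, against 1.67 to 3.05. Without this array the differences at 1 month were 0.09 ± 0.23 and -0.12 ± 0.20.

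The change in the STZ effect from 1 to 3 months was 1.27 ± 0.48 for GE15258 and 1.53 ± 0.54 for GE1202712 (SE, limma adjusted p = 0.0637 and 0.0510), and neither was called, where 15.5% of all tested probes were. Without 1M STZ 4 these values were 0.83 ± 0.32 (adjusted p = 0.0726) and 0.98 ± 0.27 (adjusted p = 0.0392, called). It was also called for GE1202712 with array weights (adjusted p = 0.0324).

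Markers of lens and anterior eye epithelium were set beside Gja1. The lens list (5 tested genes) had its lowest summed level of all 24 arrays on 1M STZ 4, at 4.67 on the log2 scale, and the list for ciliary body, iris and cornea epithelium (3 tested genes) had its lowest there too, at 1.23. In the latter list Cdh1 alone stood apart on that array, at -0.89 against 1.74 to 2.36 on the other 1M STZ arrays, while Aldh3a1 at 0.15 and Epcam at -0.53 were inside the range of those arrays. The summed Müller glia level on that array was 7.89, inside the 1M STZ range of 7.78 to 8.38. At 3 months the lens sum was 6.02 to 6.84 in Control and 7.13 to 8.38 in STZ, and the ciliary, iris and cornea sum was 1.45 to 2.54 in Control and 2.72 to 3.72 in STZ. Neither pair of ranges overlapped. The same held at 3 months for the sums of the tested members and of the adherens junction, caveolae, astrocyte and myelin lists given below. The sums of the tight junction, gap junction, transport, endothelial, pericyte, pigment epithelium, rod and blood lists overlapped. In the lens list 4 of 5 tested genes were higher at 3 months, and in the ciliary, iris and cornea list 3 of 3, with Cdh1 (E-cadherin, of epithelial junctions, also in the adherens junction list), Aldh3a1 and Epcam. The part of lens or anterior eye tissue in the Gja1 result was not tested.

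Retinal cell markers were also measured. The Müller glia sum (6 tested genes) was 5.95 to 7.51 in 3M Control and 7.44 to 7.86 in 3M STZ, ranges that overlapped. It was lowest of all 24 arrays on 3M Control 2, which also had the lowest Gja1 of its group. That array was also lowest of all 24 for the rod, endothelial, tight junction, adherens junction, gap junction, caveolae and transport sums. It was not lowest for the astrocyte, pericyte, myelin and blood sums. Its median correlation with the arrays of its group was 0.84, against 0.957 or more for the other 3M Control arrays. Among the Müller glia genes Vim (an intermediate filament) was 1.53 higher, Slc1a3 (the glial glutamate transporter) 0.87 higher and Dkk3 0.73 higher, while Glul (glutamine synthetase) at 0.35, Car2 at -0.01 and Kcnj10 at -0.01 did not pass. The list's median was 0.54, or -0.25 with quantile normalization, where 1 gene was called higher. Of 4 tested astrocyte markers 2 were higher, Gfap at 1.29 and S100b at 1.02, and Aldh1l1 at 0.25 and Gjb6 at -0.11 did not pass. With quantile normalization 3 of the 4 were called higher (median 0.70). The astrocyte sum was 2.11 to 2.49 in 3M Control and 2.64 to 3.38 in 3M STZ, without overlap. In bulk tissue more cells of a type and more RNA per cell cannot be told apart. Rod markers were measured on every array, with all 6 named genes of the list tested and a summed log2 level of at least 7.76. At 3 months 3 of the 6 were higher (median 0.42), and with quantile normalization 2 were lower (median -0.34).

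**Figure D2:**
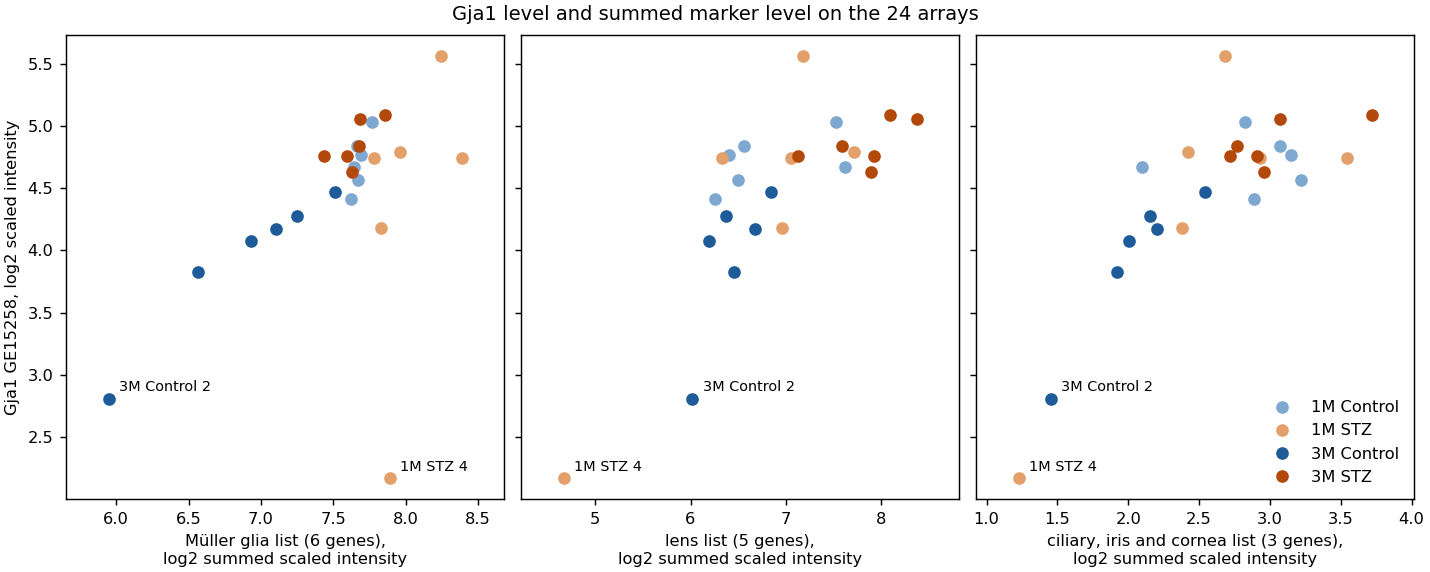
Log2 level of Gja1 GE15258 (y axis) against the log2 summed level of the Müller glia, lens, and ciliary, iris and cornea marker lists (x axes); each point is 1 of 24 arrays. 1M STZ 4 has the lowest lens sum (4.67) and anterior eye sum (1.23) with a Müller glia sum of 7.89, and 3M Control 2 has the lowest Müller glia sum (5.95).

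The genes whose pattern over the 24 arrays was most like that of Gja1 GE15258, by the root mean square difference of centred log2 levels, included Anxa1 (0.26) and Wls (0.30), against a median of 0.72 over 2811 genes. For GE1202712 they were Anxa1 (0.27), Wls (0.42) and Prx (0.46). Anxa1 encodes annexin A1, Wls the carrier that secretes Wnt proteins and Prx periaxin. These 3 were lower on 1M STZ 4 than on each of the other 23 arrays. Anxa1 was at 1.49 there, against 3.64 to 4.45 on the other 5 STZ arrays, and Wls was at 0.21, against 1.47 to 2.83.

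Cav1 was higher in STZ at 3 months by 0.49 ± 0.17 (SE, n = 6 per group, 95% interval 0.14 to 0.84, limma adjusted p = 0.0197). Its level was between 0.41 and 1.10 (median 0.88) in 1M Control and between 0.60 and 0.91 (median 0.83) in 1M STZ. At 3 months it was between -1.17 and 0.10 (median -0.33) in Control and between -0.25 and 0.44 (median 0.09) in STZ. The 3 month groups overlapped, with 2 of 6 STZ arrays above every Control array. The difference was near the median of all tested probes. Without 3M Control 2, the lowest array for Cav1, it was 0.33 and was not called (adjusted p = 0.0643), and without 3M STZ 2 it was 0.43 (adjusted p = 0.0512). Cav1 exceeded the 95th percentile of the bacterial probes on all 12 arrays at 1 month and on 0 of 12 at 3 months, so the 3 month values lay within the range of probes for another organism. At 1 month the difference was -0.02 ± 0.17 (95% interval -0.37 to 0.33).

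Cav2 was not called at either time. Its level was between 1.37 and 2.67 (median 2.48) in 1M Control, between 2.01 and 2.90 (median 2.34) in 1M STZ, between -0.04 and 1.66 (median 1.33) in 3M Control and between 1.09 and 2.27 (median 1.58) in 3M STZ. The groups overlapped at both times, and the value of -0.04 came from 3M Control 2. The 3 month difference was 0.39 ± 0.25 (SE, 95% interval -0.13 to 0.91, limma adjusted p = 0.190), and 0.15 ± 0.22 without that array. The interval at 1 month was -0.39 to 0.66. The change in the STZ effect between the times was 0.51 ± 0.24 for Cav1 (adjusted p = 0.116) and 0.25 ± 0.36 for Cav2 (adjusted p = 0.585), and neither was called.

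The genes most like Cav1 over the arrays were Timm17a, Gabarap and Cycs, at root mean square differences of 0.18, 0.18 and 0.19 against a median of 0.48. Timm17a serves mitochondrial import, Gabarap autophagy and Cycs is cytochrome c. Those most like Cav2 included Psip1 (0.19) and Sdhd (0.25), a subunit of succinate dehydrogenase, against a median of 0.59. Neither caveolin had the other among its 3 most similar genes.

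The tight junction members were dim. Ocln was above the limit on 0 of 24 arrays. Its log2 level had a median of -2.55 in 1M Control, -2.64 in 1M STZ, -1.68 in 3M Control and -2.54 in 3M STZ. No fold is given for it, since both groups were under the limit at both times. Cldn3 was above the limit on 3 of 24 arrays, all in 3M Control, where it ranged from -1.36 to -0.68 (median -0.89), against -1.92 to -1.15 (median -1.55) in 3M STZ. No fold is given for Cldn3 either, since all its 3M STZ arrays were under the limit.

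Cldn11 was above the limit on 4 of 24 arrays, again all in 3M Control. It ranged from -1.27 to -0.09 (median -0.71) in 3M Control and from -2.00 to -0.98 (median -1.70) in 3M STZ, with 4 of 6 STZ arrays below every Control array. No fold is given for it either. Its mean in 3M Control was -0.69, under the median of the bacterial probes in that group (-0.55). At 1 month it ranged from -3.30 to -2.95 in Control and from -3.23 to -2.52 in STZ, all under the limit. None of the 3 tight junction probes exceeded the 95th percentile of the bacterial probes on any array.

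Fitted without the filter, these probes were lower in 3M STZ, with adjusted p of 0.0196 for Ocln, 0.00987 for Cldn3 and 0.00136 for Cldn11 (limma, 6 arrays per group). In that fit 34.6% of all probes at or under the limit were called lower, so these calls are not specific to the tight junction probes. Over the 11824 dim probes, the median difference was -0.44. Over those above the limit it rose with brightness under median scaling, from 0.21 in the dimmest class (limit to 1) to 0.65 above a log2 level of 4. With that scaling each of the 8 member probes had the sign of the median of its brightness class at 3 months. With quantile normalization the class medians above the limit fell with brightness, from 0.28 to -0.04. Gja1 GE15258, at 0.24, then had the opposite sign to its class, and the other member probes kept the sign of theirs. After subtraction of the 5th percentile of the array, the Ocln difference was -0.02 and was not called (adjusted p = 0.964). The other dim probes moved further from 0 and were called, with Cldn3 at -2.31, Cldn11 at -2.97 and Gja1 GE19827 at -1.59. Of the other genes that mark myelin, in which claudin-11 also stands, 4 of 5 tested were higher in 3M STZ, among them Mobp at 1.19 and Mal at 0.85.

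**Figure D3:**
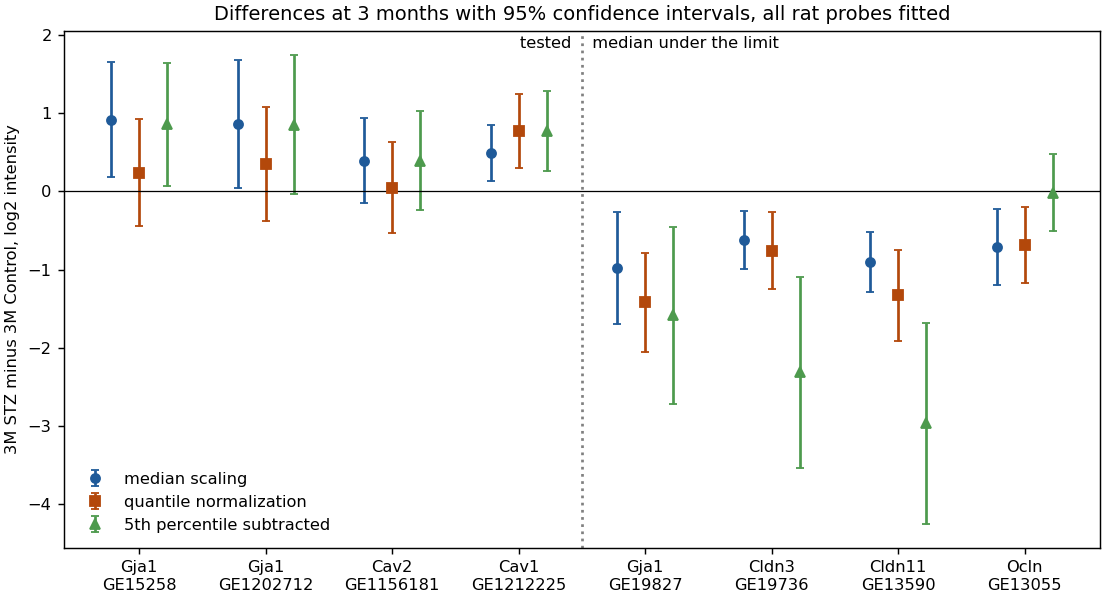
3M STZ minus 3M Control difference (y axis, log2 intensity) of each of the 8 probes under 3 scalings, fitted with all rat probes; bars are 95% confidence intervals. The 4 tested probes lie above 0 and the 4 dim probes below it with median scaling, and the Gja1 GE15258 difference is 0.24 with quantile normalization. With the 5th percentile subtracted, Ocln is at -0.02, Cldn3 at -2.31, Cldn11 at -2.97 and Gja1 GE19827 at -1.59.

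The size of these differences depended on how the arrays were scaled. The interquartile range of log2 intensity was 3.47 in both 1 month groups, 1.81 in 3M Control and 2.50 in 3M STZ (median over arrays). Quantile normalization, which gives all arrays the same distribution, moved the median 3 month difference of all tested probes from 0.44 to 0.16 and the share of called probes from 54.1% to 31.5%. The share of higher among called probes went from 93.4% to 78.1%. With it Gja1 GE15258 was at 0.24 ± 0.32 and was not called (adjusted p = 0.609), and 5 of 6 STZ arrays were above every Control array. Cav1 was at 0.77 and was still called. The test named in the study's methods, at p under 0.01, called 16.9% of the tested probes at 3 months, and of the 4 member probes Gja1 GE1202712 alone. The bacterial probes themselves had a median level of -3.16 in 1M Control, -3.54 in 1M STZ, -0.55 in 3M Control and -0.85 in 3M STZ.

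Levels also differed between the Control groups of the 2 times, again by brightness. From 1M to 3M Control, the log2 level changed by -0.77 and -0.58 on the bright Gja1 probes, -1.20 for Cav1 and -1.11 for Cav2, and by 0.60 for Ocln, 1.51 for Cldn3, 2.37 for Cldn11 and 1.64 for Gja1 GE19827. With quantile normalization the sign turned for Ocln (-1.67), Cldn3 (-0.06) and Gja1 GE1202712 (0.02). Probes under the limit had a median change of 1.88, and those with a log2 level of 1 to 2 had one of -0.68. No test is given, because the sets were handled separately.

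The other genes of the barrier were compared in the same way at 3 months. Over all 2812 tested genes with a symbol, 1574 were higher, 97 were lower and the median difference was 0.50, or 0.17 with quantile normalization. None of the genes in the barrier lists was called at 1 month, and none was called lower at 3 months on the probe that stood for it, although Slco1a4 was with quantile normalization (-0.60). Of 7 tested tight junction genes 4 were higher (median 0.54, or 0.22 with quantile normalization): F11r, which encodes junctional adhesion molecule A, at 0.86, Prkcz, a kinase of the polarity complex, at 0.78, and Ybx3 and Magi3 at 0.58 and 0.54. The adaptor genes Mpdz, Pard3 and Magi2, at 0.36, 0.36 and 0.31, did not pass. With quantile normalization 0 of the 7 were called.

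Of 4 tested adherens junction genes 3 were higher (median 0.69, or 0.13 with quantile normalization). Cdh2 (N-cadherin) was 0.99 higher and also higher on its second probe (0.72), and Jup, plakoglobin, was 0.40 higher. The 2 probes of Cdh1 disagreed, at 1.08 (called) and -0.25. Ctnnb1, β-catenin, was at -0.33 and did not pass. The endothelial cadherin Cdh5 and Pecam1, which define endothelium, were not analysed here.

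Of 5 tested gap junction genes beside Gja1, 3 were higher (median 0.37, or 0.42 with quantile normalization). Gjb1 (connexin32) was 0.89 higher, with levels of 1.03 ± 0.35 in 3M Control and 1.92 ± 0.25 in 3M STZ (SD, n = 6), and Gja4 (connexin37) was 0.37 higher. Gja5 (connexin40) had 3 tested probes at 0.52 (called), 0.28 and -0.32. Gjb6 (connexin30) at -0.11 and Panx1 at 0.20 did not pass. Another 6 connexin genes, among them the neuronal Gjd2, were under the limit.

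The other caveolae genes had a median of 0.80 over 9 tested genes, the highest of the 5 other barrier lists, and 6 of the 9 were higher. With quantile normalization the median was 0.36, below that of the gap junction list. The flotillins of membrane rafts, Flot2 and Flot1, were 1.46 and 1.03 higher. Cavin3, a coat protein of caveolae, was 1.23 higher, with 2.62 ± 0.45 in 3M Control and 3.85 ± 0.36 in 3M STZ (SD, n = 6). Ehd4 was 0.90 higher on one probe and 0.34 (not called) on the other. Plvap, the diaphragm protein of fenestrated and leaky endothelium, was 0.80 higher, and Dnm2, dynamin-2, 0.51 higher. Pacsin2 and Scarb1, at 0.27 and 0.26, did not pass, and Cav3 was under the limit.

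Of 15 tested genes of barrier transport and control 7 were higher (median 0.34, or 0.03 with quantile normalization). Besides Plvap they included Slco1c1, a thyroxine and anion carrier, at 0.64, the efflux pump Abcb1a at 0.64, and the glucose transporter Slc2a1 at 0.56. The lowest were Slc3a2 at -0.34, Slco1a4 at -0.26 and Prkcb at -0.11, none of which passed. Both endothelial markers tested, the receptors Kdr and Flt1, were higher, by 0.59 and 0.34, and were at 0.01 and 0.03 with quantile normalization. Their summed level was 2.36 to 4.15 in 3M Control and 3.51 to 4.51 in 3M STZ. Of 6 pericyte and smooth muscle markers Cspg4 was higher (1.03), and Pdgfrb at -0.19 and Rgs5 at -0.34 did not pass. Of the blood markers 3 of 6 were higher, Cd74 (1.36), Itgam (0.64) and Slc4a1 (0.43), while Hba-a1 and Alas2, at -0.29 and -0.34, did not pass. In the retinal pigment epithelium list, Ttr at 0.10 and Rpe65 at -0.10 did not pass, although a second Rpe65 probe was at -0.83 (called). The summed level of this list was 6.60 on 3M STZ 1, against 1.22 to 3.09 on the other 3M STZ arrays, and its 3M Control range of 1.28 to 3.69 overlapped these. On 1M STZ 4 it was 0.72, inside the range of its group.

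**Figure D4:**
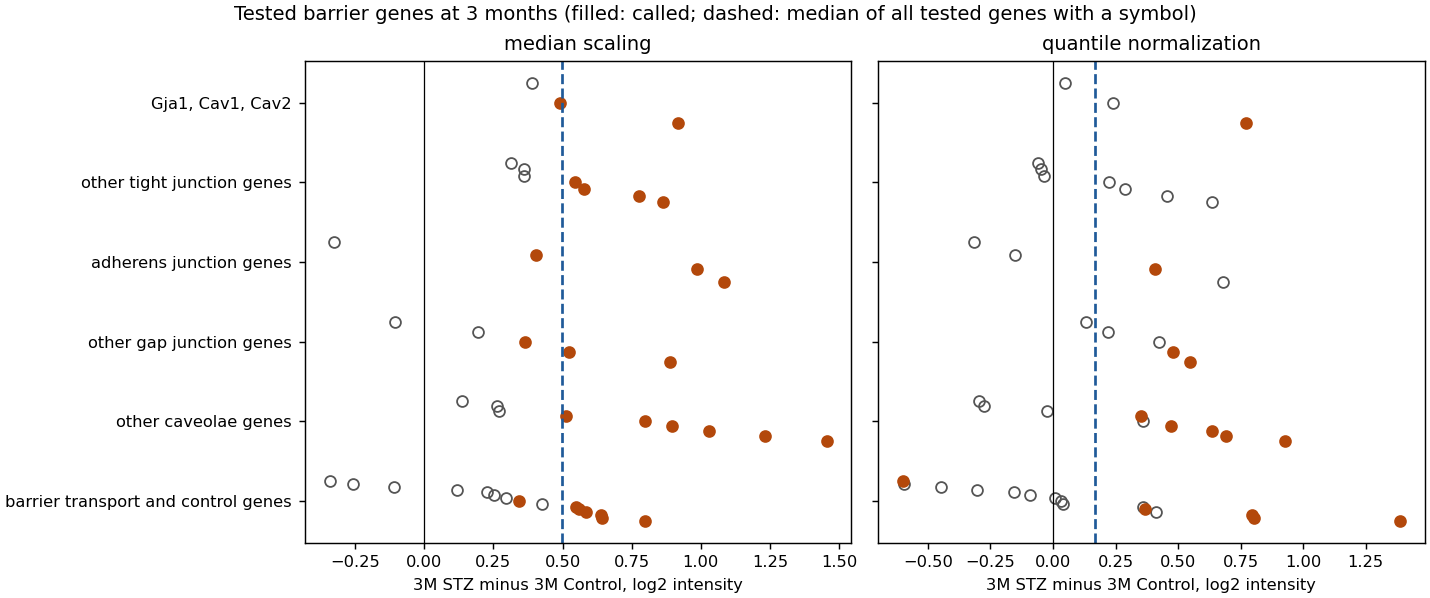
3M STZ minus 3M Control difference (x axis, log2 intensity) of each tested gene in 6 barrier lists (y axis) with median scaling and with quantile normalization; filled points are called and the dashed line is the median of all 2812 tested genes with a symbol. The medians of all genes are 0.50 and 0.17, and in the transport and control list 1 gene is called lower with quantile normalization.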

How the data were processed

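CodeLink rat whole genome arrays were hybridized with retinal RNA, 6 for each of 4 groups. The study's animal table lists fewer 1M Control rats than there are arrays of that group, and a legend names fewer animals than arrays for every group. All arrays were used. The labels do not say whether each array is a separate animal, so p-values measure the spread between arrays. The authors scanned the slides, excluded defective spots, subtracted background and normalized within each array, and they deposited the background-subtracted intensity and the normalized intensity of each spot on a linear scale. Here the background-subtracted intensity was divided by the median of the 33849 rat probes of its array (123.5 to 359.6 before scaling), raised to a floor of 0.01 and put on the log2 scale. The number of arrays limits the precision. Probes were tested above the 35th percentile of the median scaled intensity (0.554) and with at least 4 values per group, which left 22025.

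The 4 groups entered 1 limma model (limma 3.58.1, R 4.3.3) with an interaction between treatment and time. P-values were adjusted by Benjamini-Hochberg over all tested probes, and calls needed 1.2-fold and an adjusted p below 0.05. Simulated data were used to test the model. Of 5469 probes with a RefSeq accession, 4675 were given a symbol. The brightest tested probe stood for a gene. From each list the called genes were named, up to the 3 highest and 3 lowest, along with defining markers. Single values of 4 genes that this rule names are not reported here, and counts, medians and sums include them. A list sum is log2 of the summed scaled intensity of its tested genes. The members and lists were chosen with earlier results of these data known. Alternatives were the study's test without equal variances, no fold limit, separate time points, a replicate block, quantile normalization, the deposited normalized values, no filter, a floor of 0.1, array weights, detection on all 24 arrays and each array left out, and, chosen after seeing the data, subtraction of the 5th percentile, quantile normalization within time points and the emphasis on 1M STZ 4.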

Additional observations from a re-analysis of the deposited data

Results flagged for a closer look

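Of 32 sets of 6 arrays (8 probes in 4 groups), 6 held an array that stood apart from the rest of its group. For a single set chance gives about 1 in 20. The sets share arrays, and 3 probes are of the same gene, so an excess over that rate was not tested. Of the 6, 3 were on 1M STZ 4. There Gja1 GE1202712 was at -1.02 (the other arrays at 1.67 to 3.05), Gja1 GE19827 at -4.80 (-2.70 to -1.61) and Cldn3 at -3.29 (-2.64 to -2.28). The last 2 were under the detection limit. Ocln was high on 1M STZ 5, at -1.98 against -2.73 to -2.56, also under the limit. Gja1 GE19827 was low on 3M STZ 3, at -1.29 against -0.83 to -0.74. Cav2 was low on 3M Control 2, at -0.04 against 1.11 to 1.66.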

How the results depend on the processing

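The 4 tested member probes had 2 calls at 3 months, and 1 call under the methods' test (with or without adjustment; GE1202712), quantile normalization over all arrays or within time points, and subtraction of the 5th percentile. With detection on all 24 arrays 2 member probes were tested, without Cav1, and 1 was called, Gja1 GE15258 (adjusted p = 0.0206). Leaving out each array in turn gave 0 to 3 calls, with 0 without 3M Control 2. Gja1 GE15258 was also lost without 3M STZ 5 (adjusted p = 0.0525) and 3M STZ 6 (0.0503), and Cav1 in separate models of the time points (0.0606) and with array weights (0.27, adjusted p = 0.0889). The change in effect between time points had 0 calls, 1 with array weights, and 0 to 2 with each array left out. At 1 month no alternative called a member. Signs there turned for Gja1 GE15258 without 1M STZ 4 (0.09; each array left out, -0.59 to 0.09), for Cav1 without 1M Control 2, 4 or 5 or 1M STZ 1 (each array left out, -0.10 to 0.04) and for Cav2 with array weights (-0.18) or without 1M Control 5 (-0.05; each array left out, -0.05 to 0.22). The interaction of Cav2 turned to -0.08 with quantile normalization and -0.11 within time points. Over all probes, 11911 were called at 3 months, 15671 without the filter, 8734 without 3M Control 2, 6948 with quantile normalization and 1921 with the methods' test after adjustment. The replicate numbers did not pair the arrays (12 pairs, 5 with a correlation over 0.1, range -0.24 to 0.25, 3 best with their own number). The replicate block called 3 probes at 3 months and 2 in the change between time points. The causes were not tested. Signal over background limits Ocln, Cldn3, Cldn11 and, at 3 months, Cav1.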
